A study of Mus musculus with 21 samples.

Results

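Expression of Apoe and 9 genes beside it on mouse chromosome 7 was followed in the forebrains of 21 mice, to ask whether the exchange of the mouse gene for 3 human APOE alleles went with different levels of the genes around it. The 10 genes (Apoe, Apoc1, Apoc2, Apoc4, Tomm40, Nectin2, Bcam, Clptm1, Relb and Bcl3) were chosen by name and position, with earlier results of these data known. They were matched by symbol to Ensembl gene identifiers. All 10 were found among the 55401 genes of the count table. Of these mice 9 were parental, with 3 each of E2H, E3H and E4H, homozygous for humanized APOE2, APOE3 or APOE4, on a C57BL6 background and killed at 9 to 10 months. The other 12, with 4 in each of PS/E2H, PS/E3H and PS/E4H, carried the same homozygous alleles plus the PS19 transgene, a human tau gene with the P301S mutation under the mouse prion promoter. PS19 is kept on a B6/C3H background, and these mice came from a cross backcrossed to the APOE lines and were collected at hindlimb paralysis. Tau genotype, paralysis, age and background therefore cannot be told apart when a PS19 group is set against its parental line.

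No mouse with an intact Apoe locus is in the series. All 6 groups carry the replacement, so the neighbours can be compared between the 3 alleles but not with the native locus. In targeted-replacement lines of this kind the coding exons of the mouse gene are exchanged for human sequence while the mouse sequence upstream is kept. The reads were aligned to the mouse genome, so the Apoe values are the reads assigned to the mouse gene model. How much of the human APOE mRNA they hold was not tested, and they are not a measure of human APOE.

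Apolipoprotein E is the main lipid carrier secreted by astrocytes, and by microglia when they are activated, and it is taken up through lipoprotein receptors on the cell surface. Its gene lies in a cluster with those of the small exchangeable apolipoproteins C1, C2 and C4, which are made mostly in the liver and in macrophages. In people, genetic association with Alzheimer's disease extends from APOE over TOMM40, NECTIN2 and APOC1, which makes the behaviour of these neighbours a recurring question.

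In the GENCODE M21 annotation of GRCm38 all 10 genes lie on the minus strand of chromosome 7 within 217 kb. Bcl3 (chr7:19808462-19822770), Bcam (chr7:19756131-19771016), Nectin2 (chr7:19716644-19750483) and Tomm40 (chr7:19701313-19715438) start before Apoe in the direction of transcription. Tomm40 ends 2124 bases before the Apoe start. Apoe itself (ENSMUSG00000002985) spans chr7:19696109-19699188, and the Apoc1 start lies 3448 bases beyond its end. Apoc1 (chr7:19689481-19692660), Apoc4 (chr7:19678083-19681479), Apoc2 (chr7:19671579-19677941), Clptm1 (chr7:19631571-19665033) and Relb (chr7:19606217-19629438) follow. A readthrough model, Gm44805, shares exons with Apoc4 and Apoc2, so reads of these 2 genes could be divided between the models. The libraries kept strand, which separates the antisense models beside Tomm40, Nectin2, Bcam and Bcl3 from their partners only if the counting used it.

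Promoter windows from RefSeq (GRCm38.p6), 250 bases before to 50 after a start, were found for 8 of the 10 genes, with 3 alternative starts for Apoe. Apoc1 and Relb had none. The upstream stretch of Apoe is shown because mouse sequence upstream of the gene is kept in lines of this kind. Those of Apoc4 and Bcl3 are shown because these 2 genes differed most between PS19 and parental mice. They are reference sequences on the minus strand, written 5′ to 3′, without any annotated exon, and were not read from these mice. Capitals mark GGGCGG, the core of a GC box, and CCAAT on either strand, and no 2 matches overlap.
Apoe, chr7:19699189-19699438: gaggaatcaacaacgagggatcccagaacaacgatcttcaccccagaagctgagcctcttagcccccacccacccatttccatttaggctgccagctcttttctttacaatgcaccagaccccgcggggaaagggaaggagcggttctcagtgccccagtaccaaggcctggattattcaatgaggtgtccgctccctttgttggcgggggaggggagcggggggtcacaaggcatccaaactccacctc
Apoc4, chr7:19681480-19681710: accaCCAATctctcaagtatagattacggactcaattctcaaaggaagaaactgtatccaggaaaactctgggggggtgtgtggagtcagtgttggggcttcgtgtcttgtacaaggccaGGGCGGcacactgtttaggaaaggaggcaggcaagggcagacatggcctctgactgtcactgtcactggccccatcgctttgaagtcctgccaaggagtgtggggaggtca
Bcl3, chr7:19822771-19823005: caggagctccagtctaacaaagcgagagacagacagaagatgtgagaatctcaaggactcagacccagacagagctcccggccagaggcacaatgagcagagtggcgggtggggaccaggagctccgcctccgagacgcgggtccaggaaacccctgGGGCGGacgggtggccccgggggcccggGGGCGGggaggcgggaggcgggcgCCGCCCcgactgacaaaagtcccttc
The Apoe stretch held neither motif, the Apoc4 stretch 1 of each, and the Bcl3 stretch 3 GC box cores. Over 32851 RefSeq windows of 300 bases, 35.7% held GGGCGG and 37.4% CCAAT on either strand. Tomm40 had 5 CCAAT matches in its window, the most of the 8 genes.

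The windows of the broadly expressed genes were richer in CpG than those of the apolipoproteins. Clptm1, Bcam, Bcl3, Tomm40 and Nectin2 held 30, 27, 26, 23 and 20 CpG dinucleotides, while the main Apoe start held 10, Apoc2 7 and Apoc4 5, against a median of 7 over all windows. The letters GGGANNNNCC, a loose form of the site read by NF-κB dimers, occurred in the windows of Bcl3, Bcam and Nectin2 and at a second Apoe start, and in 20.7% of all windows. The Bcl3 match begins 3 bases after the RefSeq start, which lies inside the GENCODE gene model. It is shown within chr7:19822736-19822761 on the minus strand, with the match in capitals.
Bcl3 match: ggcggcagGGGAAGTCCCgctgcccg

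Levels between genes were compared in FPKM, which accounts for transcript length. Clptm1, a multi-pass membrane protein, was the highest, at a median of 28.5 FPKM (25.8 to 30.7 over 21 mice). Tomm40, the channel of the mitochondrial outer membrane import machinery, followed at 11.8 FPKM (10.1 to 14.4). Neither range met the one below it. Bcam, a laminin-binding cell surface glycoprotein, stood at 6.24 FPKM and Apoe at 5.98 FPKM, and their ranges overlapped, with Bcam the higher in 16 mice. Apoc1 (2.46 FPKM), the adhesion molecule Nectin2 (1.75 FPKM) and the NF-κB subunit gene Relb (1.16 FPKM) came next, each with a range that met that of the next gene. Bcl3, an IκB-like cofactor of NF-κB dimers, had a median of 0.394 FPKM and Apoc4 of 0.0179 FPKM.

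Apoe therefore ranked 6591st by median FPKM. For scale, Clu, which encodes the other abundant brain apolipoprotein, had a median of 378 FPKM, 63.2 times that of Apoe, and Apod of 135 FPKM. The Apoe value is that of the mouse gene model and gives no level of human APOE. Apoc2, the cofactor of lipoprotein lipase, was at 0 in 20 mice and at 2 counts in PS/E3H replicate 3. A count of 0 allows up to 3 counts, or 0.0395 to 0.0506 CPM (counts scaled to library size) over these libraries, and this limit covers counting error only. Apoc2 passed no filter on low counts, Apoc4 passed it in 5 of the 9 comparisons of 2 groups, and the other 8 genes passed it in all 9.

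Total counts ran from 59265459 to 75932183 per mouse. The forebrain markers Neurod2, Emx1 and Bcl11b were present in every mouse, and the hindbrain and cord markers Hoxb5, Hoxc5 and Hoxa5 had medians of 0 counts. These 3 were at 0 in 11, 13 and 15 mice and reached 47, 11 and 12 counts in single mice. Ddx3y, a Y-linked gene, was at 42.3 to 65.7 CPM in 4 libraries (1 E4H, 1 PS/E2H and 2 PS/E4H), with Xist at 2.56 to 2.84 CPM. In the other 17, Xist was at 203 to 483 CPM and Ddx3y at no more than 0.339 CPM. These 4 libraries are therefore male by expression and the others female, the reverse of the sexes given in the methods. E2H replicate 2 stood apart from the other parental mice on the second principal component.

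**Figure D1:**
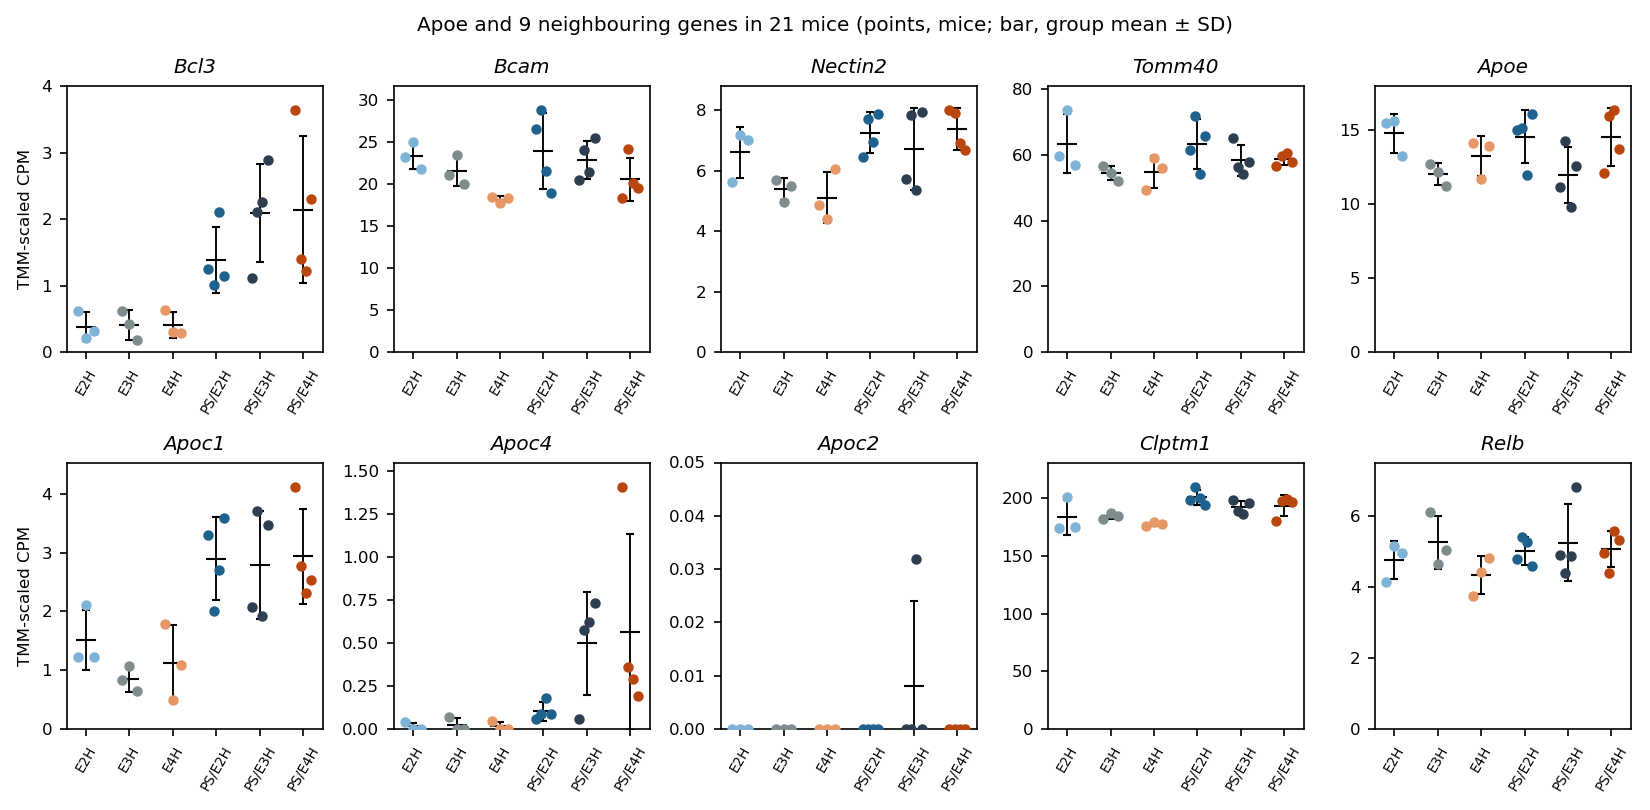
Level of each of the 10 genes by mouse, in TMM-scaled CPM on a linear axis from 0, for the 6 groups, with points for mice and bars for the group mean ± SD (n = 3 or 4; bars are cut at 0). The PS19 group means lie above the parental means for Bcl3, Apoc1 and Apoc4. Over all 21 mice Clptm1 keeps a narrow range (174 to 210 CPM), while Apoe runs from 9.83 to 16.3 CPM.

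None of the 10 genes passed the test for a difference between APOE lines, and Apoc2 was too low to be tested. Each pair of lines was compared with the edgeR quasi-likelihood test on counts, with the threshold for a call set at an adjusted p (Benjamini-Hochberg, over all genes tested) of 0.05. Over the 6 comparisons 0 of 51 tests on these genes passed, and 6 had an unadjusted p under 0.05 (2, 1, 1, 1, 0 and 1 in the order of comparison given next). Of all genes, 14.1%, 6.67%, 12.4%, 11.7%, 6.51% and 12.3% had such a p in those comparisons. DESeq2 on counts and limma on FPKM also called 0 in each. The shares called among all tested genes were 0.178% for E2H against E3H, 0.162% for E4H against E3H and 0.216% for E4H against E2H. In the PS19 groups they were 0.113% for PS/E2H against PS/E3H, 0.0197% for PS/E4H against PS/E3H and 0.119% for PS/E4H against PS/E2H, so 0 calls among 8 or 9 genes is near the background.

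The intervals of the differences say more than the calls. In each of the 3 parental comparisons, 6 of the 8 genes tested had a 95% interval that lay wholly inside a 2-fold change in either direction, and 5 lay inside a 1.5-fold change. The exceptions to the 2-fold bound were Apoc1 and Bcl3, whose counts were low. In the PS19 comparisons 7, 8 and 7 of 9 genes lay inside 2-fold. Bcl3 and Apoc4 were the exceptions for PS/E2H against PS/E3H and for PS/E4H against PS/E2H, and Apoc4 alone for PS/E4H against PS/E3H.

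**Figure D2:**
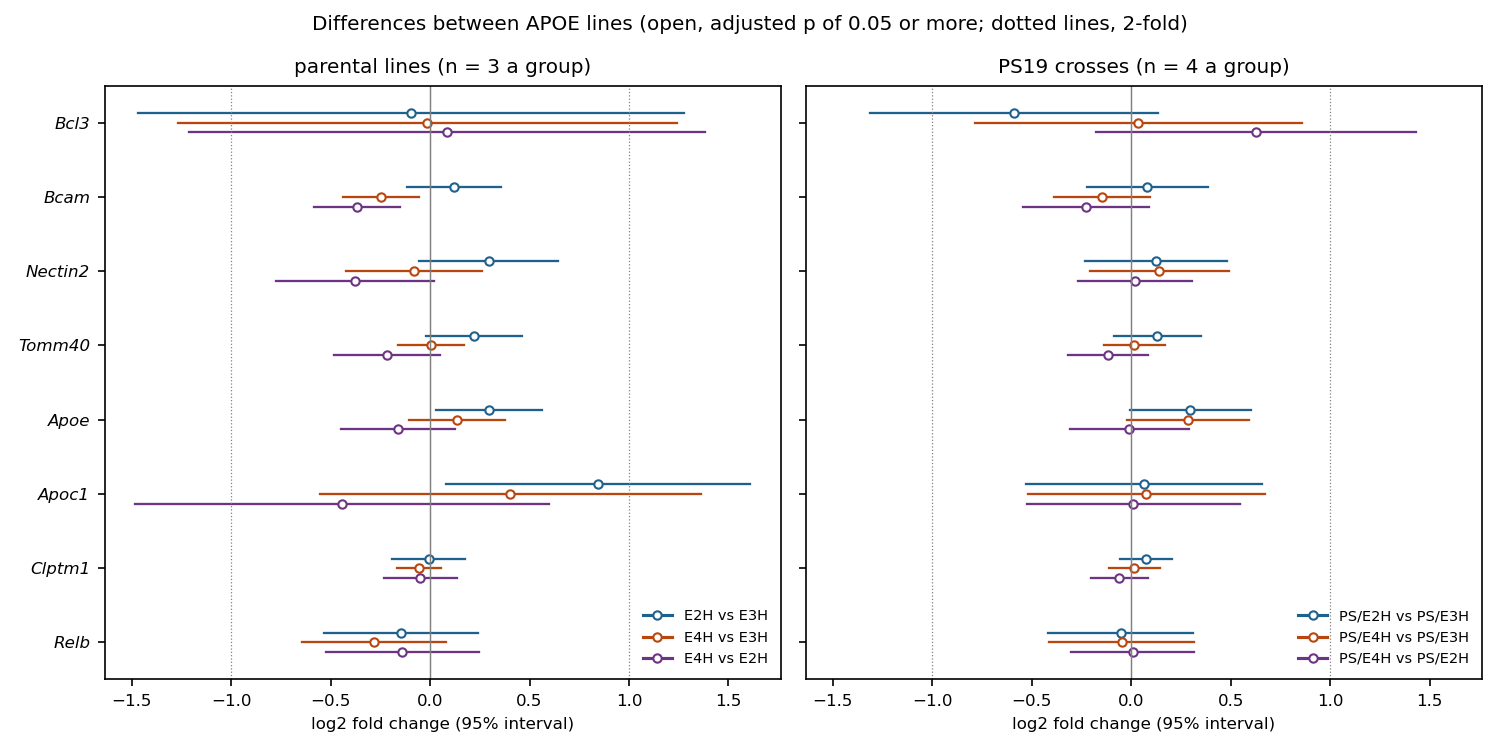
Log2 fold changes between APOE lines with 95% intervals for 8 genes in the parental mice (left) and PS19 mice (right), ordered along the chromosome. All symbols are open, since no difference passed an adjusted p of 0.05, and intervals are narrowest for Clptm1 and Tomm40 and widest for Bcl3 and Apoc1.

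Apoe was lowest in the E3 groups in both tau states. The E2H mice were at 15.5, 15.6 and 13.3 CPM, the E3H mice at 12.7, 12.2 and 11.2 CPM, and the E4H mice at 14.1, 11.7 and 13.9 CPM. E2H and E3H did not overlap, as was true in this direction of 12.7% of all tested genes. E2H exceeded E3H by 0.30 on the log2 scale (95% interval 0.03 to 0.56, edgeR adjusted p = 0.319).

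Among the paralyzed mice, PS/E2H stood at 14.99, 15.14, 11.98 and 16.11 CPM, PS/E3H at 11.2, 14.3, 9.83 and 12.6 CPM, and PS/E4H at 12.1, 15.9, 16.3 and 13.7 CPM. These groups overlapped. PS/E2H exceeded PS/E3H by 0.30 (95% interval -0.01 to 0.60, edgeR adjusted p = 0.431) and PS/E4H exceeded PS/E3H by 0.29 (95% interval -0.02 to 0.59, edgeR adjusted p = 0.775). With both tau states in one edgeR fit, the E2 lines exceeded the E3 lines by 0.30 ± 0.09 (SE, 7 mice each, adjusted p = 0.0690), and the E4 lines exceeded the E3 lines by 0.22 ± 0.09 (SE, adjusted p = 0.836). In this pooled fit 3.31% and 0.122% of genes were called for those 2 contrasts. When single mice were left out of the test of the 3 lines together, Apoe passed it without PS/E2H replicate 3, the mouse with the lowest Apoe level of its group (edgeR adjusted p = 0.0448), and in none of the other 20 fits. In that fit 1756 of 22787 genes were called, against 283 of 22863 with all mice.

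Tomm40, the gene next to Apoe, differed little between lines. Mean levels were 63.4 ± 8.88 CPM in E2H, 54.4 ± 2.22 CPM in E3H and 54.8 ± 4.89 CPM in E4H (SD, n = 3). In the PS19 groups they were 63.3 ± 7.48, 58.3 ± 4.67 and 58.7 ± 1.81 CPM (SD, n = 4). The E2H and E3H mice did not overlap, as was true in this direction of 12.7% of all tested genes. E2H lay 0.22 above E3H on the log2 scale (95% interval -0.02 to 0.46, edgeR adjusted p = 0.388). With both tau states pooled, the E2 lines lay 0.18 above the E3 lines (95% interval 0.03 to 0.32, edgeR adjusted p = 0.134). Between the E4 and E3 lines the pooled difference was 0.01 (95% interval -0.13 to 0.16).

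Bcam was lowest in the E4 groups. The E4H mice, at 18.4, 17.7 and 18.3 CPM, lay below all E3H mice (21.07, 23.48 and 19.99 CPM) and all E2H mice (23.3, 25.0 and 21.8 CPM). In these directions 6.11% and 10.7% of tested genes did not overlap. E4H was 0.25 lower than E3H on the log2 scale (log2 fold change -0.25, 95% interval -0.44 to -0.05, edgeR adjusted p = 0.591) and lower than E2H by more (log2 fold change -0.37, 95% interval -0.58 to -0.15, edgeR adjusted p = 0.342).

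In the PS19 mice the Bcam values overlapped, at 26.6, 28.8, 21.5 and 19.0 CPM in PS/E2H, 20.5, 24.1, 21.4 and 25.4 CPM in PS/E3H, and 18.3, 24.1, 20.2 and 19.6 CPM in PS/E4H. The pooled difference of the E4 lines from the E2 lines was -0.29 (95% interval -0.47 to -0.11, edgeR adjusted p = 0.114), and 0.634% of genes were called in that contrast.

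Of the other neighbours, Clptm1 had line differences between -0.06 and 0.07 on the log2 scale. Its intervals were the tightest of the 10 genes, and the pooled E2 and E4 lines lay 0.04 above (95% interval -0.04 to 0.13) and 0.01 below (log2 fold change -0.01, 95% interval -0.10 to 0.07) the E3 lines. Nectin2 was higher in E2H than in E3H by 0.29 (95% interval -0.05 to 0.64) and Relb lower in E4H than in E3H (log2 fold change -0.28, 95% interval -0.64 to 0.08), neither of which passed the test. Apoc1 was higher in E2H (1.22, 2.11 and 1.23 CPM) than in E3H (0.830, 1.07 and 0.639 CPM) without overlap, as were 12.7% of genes. The difference was 0.84 (95% interval 0.08 to 1.61, edgeR adjusted p = 0.322), while the means of the 3 PS19 groups lay between 2.80 and 2.94 CPM. Without E2H replicate 2, which stood apart and held the highest Apoc1 of its group, the difference was 0.54 (edgeR adjusted p = 0.554), that of Tomm40 was 0.10 (edgeR adjusted p = 0.595) and that of Apoe 0.25 (edgeR adjusted p = 0.397).

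The parental and PS19 comparisons share no mice. The sign of the difference between E2 and E3 was the same in both for 7 of the 8 genes tested in both, where 63.8% of 19911 genes had the same sign. For E4 against E3 it was the same for 5 of 8 (55.4% of genes), and for E4 against E2 for 5 of 8 (55.6% of genes). With all 6 groups in one fit and the 3 lines tested together, 0 of 9 genes were called and 1.24% of all genes were. The smallest adjusted p was that of Bcam (0.129), and 3 of the 9 (Bcam, Apoe and Tomm40) had an unadjusted p under 0.05, as 18.9% of all genes did.

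Calls between lines were also counted by distance from Apoe. Within 0.25 Mb of the Apoe start 38 genes are annotated, and 24 of them, 15 outside the 10 described here, passed the filter in the fit of all 6 groups. None of the 22 to 23 genes tested there was called in any of the 6 line comparisons, by edgeR, where 0.0197% to 0.216% of all tested genes were. Between 0.25 and 1 Mb, 1 call was made in 218 tests, for Ccdc61, lower in PS/E4H than in PS/E2H (log2 fold change -1.15, adjusted p = 0.00850) at 0.789 Mb.

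From 1 to 5 Mb there were 8 calls in 383 tests, led in proximity by the predicted gene Gm45104 at 1.30 Mb, which was lower in E2H than in E3H (log2 fold change -3.18, edgeR adjusted p = 3.73e-04) and likewise in PS/E2H against PS/E3H (log2 fold change -4.53, edgeR adjusted p = 2.39e-04). From 5 to 20 Mb there were 27 calls in 2399 tests, beyond 20 Mb on chromosome 7 there were 0 in 6510, and on other chromosomes 122 in 113608. These are counts with no test of the trend, and one gene can be called in several comparisons.

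**Figure D3:**
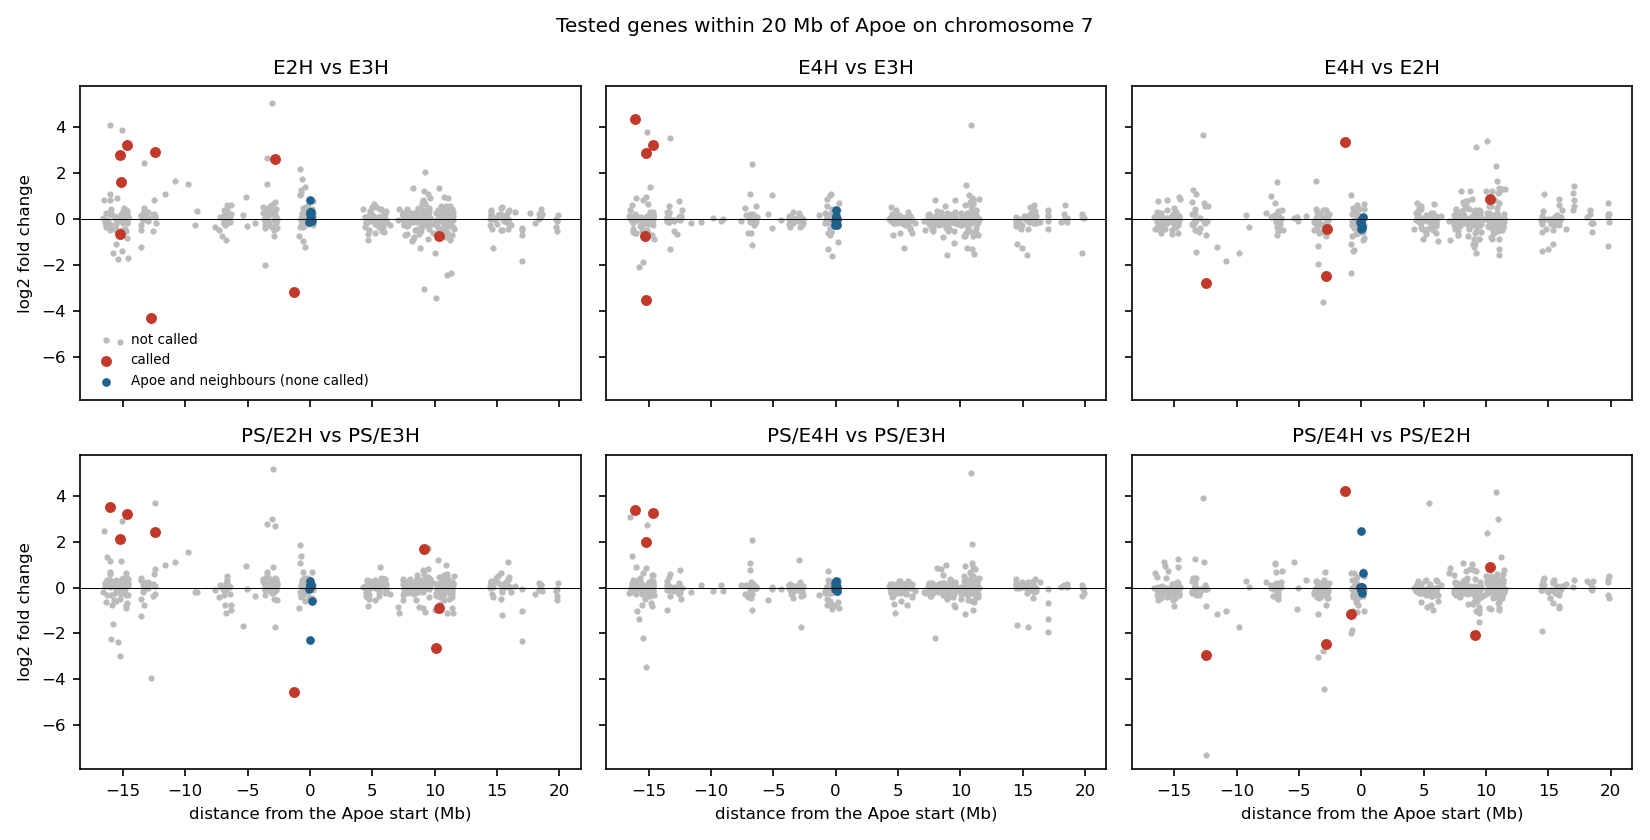
Log2 fold change of every tested gene within 20 Mb of Apoe against its distance from the Apoe start in Mb (negative, lower coordinate), for the 6 line comparisons. Genes called at an adjusted p under 0.05 are red, and Apoe and its neighbours, blue, form a column near 0 Mb with none called, including Apoc4 at -2.27 for PS/E2H against PS/E3H.

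The pooled test of the 3 lines has more mice and called 1.24% of all genes. Within 0.25 Mb 0 of 24 genes were called, which is near that share, and between 0.25 and 1 Mb 4 of 37. From 1 to 5 Mb it called 9 of 70 and from 5 to 20 Mb 32 of 439. Beyond 20 Mb on chromosome 7 it called 7 of 1221, and on other chromosomes 227 of 21036. The 4 genes between 0.25 and 1 Mb were Dmwd at 0.623 Mb, Ccdc61 at 0.789 Mb, Pglyrp1 at 0.828 Mb and Mill2 at 0.859 Mb. Each differed mainly in the E2 lines, where Pglyrp1, a secreted peptidoglycan-binding protein, was 1.99 above the E3 lines and -0.16 in the E4 lines against E3 on the log2 scale (edgeR adjusted p = 1.33e-06). In the single pooled contrast of the E2 and E3 lines, Trappc6a, a subunit of the TRAPP vesicle tethering complex whose start lies within 0.25 Mb of that of Apoe, was also called (log2 fold change 0.45 ± 0.11 SE, edgeR adjusted p = 0.0354). Its mean was 8.79 ± 1.59 CPM for E2H and 6.22 ± 0.413 CPM for E3H (SD, n = 3). Trappc6a was the 1 gene called of 24 within 0.25 Mb in that contrast, where 3.31% of all genes were called. Between 0.25 and 1 Mb the same contrast called 9 of 37.

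Between PS19 and parental mice the picture was different. Bcl3, Apoc1 and Apoc4 were higher in PS19 mice, Nectin2 and Clptm1 slightly so, and Apoe, Tomm40, Bcam and Relb did not pass the test. Apoc4 had 0 counts in 6 of the 9 parental mice and passed the filter on low counts through the PS19 mice, so its rise was favoured by the filter and it is left out of the counts given here. With the 3 lines pooled, 4 of the other 8 tested genes rose and 0 fell, where 21% of all genes were called, 11.4% higher and 9.63% lower. For 2 of them (Bcl3 and Apoc1) the fold change was at least 2, where 2.6% of all genes were called with such a fold.

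By line, 3 of these 8 genes passed in PS/E4H against E4H (Bcl3, Apoc1 and Nectin2), where 15.6% of all genes were called. In PS/E3H against E3H 2 of 8 passed (Bcl3 and Apoc1), where 5.37% were called, and in PS/E2H against E2H 0 of 8 passed, where 0.752% were called. At an unadjusted p under 0.05, 2 of those 8 (Bcl3 and Apoc1) differed in PS/E2H, where 10.7% of all genes did, and DESeq2 called 1, Bcl3. The interaction tests did not find a tau effect that differed between lines for any of the 9 genes (edgeR, smallest adjusted p = 0.541, 0 at an unadjusted p under 0.05, where 5.72%, 3.81% and 10.1% of genes had one), nor for any other gene (0% called in each of the 3 tests).

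**Figure D4:**
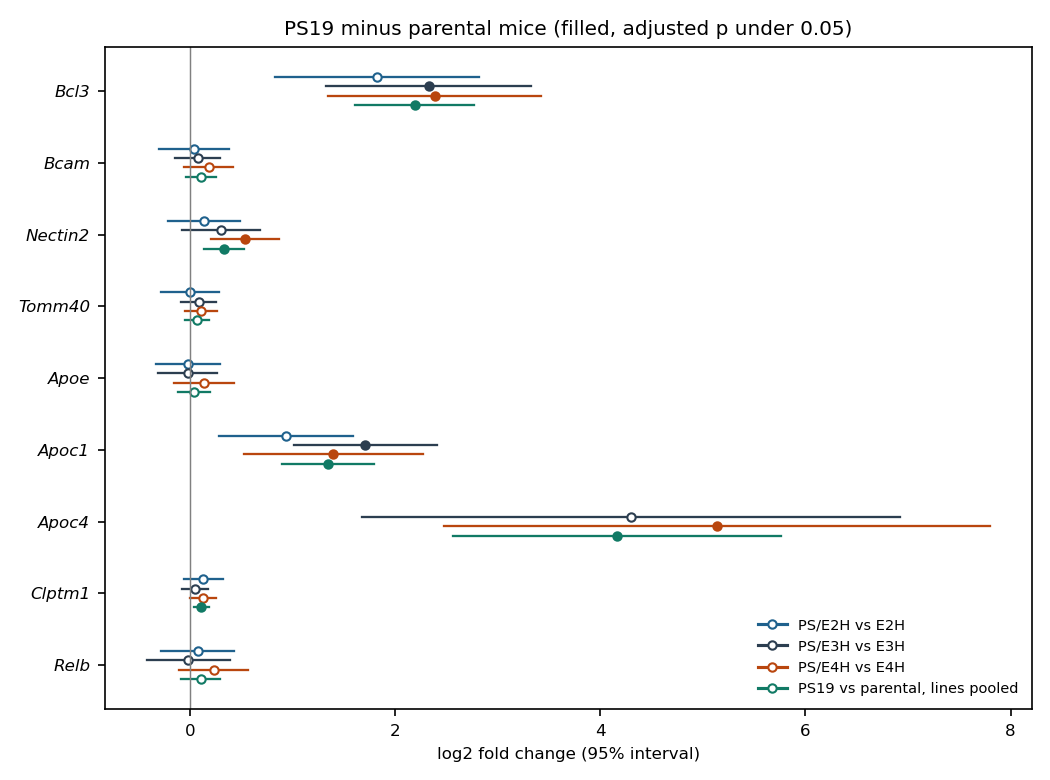
Log2 fold change of PS19 over parental mice with 95% interval for 9 genes in each APOE line and with lines pooled (green), filled where the edgeR adjusted p was under 0.05. Bcl3, Apoc1 and Apoc4 lie right of 0 in each line shown, while all intervals of Apoe and Tomm40 span 0. Apoc4 was not tested in PS/E2H against E2H.

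Bcl3 showed the clearest separation. E2H mice were at 0.624, 0.209 and 0.317 CPM, E3H at 0.626, 0.431 and 0.182 CPM, and E4H at 0.642, 0.306 and 0.285 CPM. The PS/E2H mice were at 1.25, 1.01, 2.11 and 1.15 CPM, the PS/E3H mice at 1.12, 2.12, 2.26 and 2.89 CPM, and the PS/E4H mice at 3.64, 1.41, 1.23 and 2.30 CPM. Every PS19 mouse lay above every parental mouse, which held in this direction for 1.4% of tested genes. The pooled log2 fold change was 2.19 ± 0.28 (SE, 12 against 9 mice, edgeR adjusted p = 6.05e-06), a 4.56-fold difference.

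The same was true within each line (6.47% of genes in E2H, 10.9% in E3H and 14.2% in E4H). By line the Bcl3 difference was 2.39 ± 0.47 in E4H (SE, edgeR adjusted p = 0.00862), 2.32 ± 0.45 in E3H (SE, edgeR adjusted p = 0.0196) and 1.83 ± 0.45 in E2H (SE, edgeR adjusted p = 0.120). The raw counts behind these values were 12 to 47 in parental mice and 60 to 225 in PS19 mice. Relb, which encodes the NF-κB subunit that partners p52, was by contrast at 3.76 to 6.11 CPM in parental and 4.39 to 6.83 CPM in PS19 mice, with a pooled log2 fold change of 0.10 (95% interval -0.09 to 0.29, edgeR adjusted p = 0.493).

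Apoc1, which encodes a small apolipoprotein of the particles that carry ApoE and is expressed in macrophages, rose 2.54-fold. The E4H mice were at 1.79, 0.492 and 1.09 CPM and the PS/E4H mice at 4.13, 2.78, 2.31 and 2.54 CPM. The PS/E2H mice were at 3.300, 2.0001, 2.711 and 3.588 CPM and the PS/E3H mice at 2.08, 3.70, 1.93 and 3.47 CPM, against the E2H and E3H values given above. In E3H and E4H the groups did not overlap, as for 10.9% and 14.2% of genes in this direction, and in E2H replicate 2 of the parental line (2.11 CPM) was above 1 PS/E2H mouse. The pooled log2 fold change was 1.34 ± 0.22 (SE, edgeR adjusted p = 9.01e-05). It was 1.71 ± 0.32 in E3H (SE, edgeR adjusted p = 0.0170), 1.39 ± 0.39 in E4H (SE, edgeR adjusted p = 0.0379) and 0.93 ± 0.29 in E2H (SE, edgeR adjusted p = 0.247). Without E2H replicate 2 the Apoc1 difference in E2H was 1.25 (edgeR adjusted p = 0.125).

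Apoc4, a minor apolipoprotein known mainly from liver, was close to the limit of detection. Parental replicate 1 of E2H, E3H and E4H held 3, 5 and 3 counts and the other 6 parental mice held 0. PS/E2H mice held 4, 5, 11 and 5 counts, PS/E3H mice 4, 36, 39 and 51, and PS/E4H mice 87, 22, 18 and 12. Summed counts scaled to the summed library sizes gave a PS19 to parental ratio of 40.2 in E4H (95% interval 13.5 to 197), 20.5 in E3H (8.58 to 64.3) and 6.95 in E2H (2.12 to 36.0). These exact intervals cover counting error only. PS/E4H replicate 1 held 87 of the 139 counts of its group, and the fitted log2 fold change of Apoc4 in E4H moved from 5.14 to 4.15 without that mouse and to 8.22 without E4H replicate 1. The edgeR adjusted p was 0.0179 in E4H and 0.0629 in E3H, and 4.29e-04 with lines pooled, where replicate 1 of PS/E2H and of PS/E3H lay below E3H replicate 1 in CPM. The difference of PS/E3H and of PS/E4H from PS/E2H in Apoc4 did not pass the test (edgeR adjusted p = 0.403 for PS/E2H against PS/E3H and 0.298 for PS/E4H against PS/E2H). Of the PS/E2H mice only replicate 3, with 11 counts, reached the minimum count of 10. Apoc4 thus passed the filter in these 2 comparisons mainly through the group where it was higher, so its differences there add no support.

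Nectin2, an immunoglobulin-like adhesion molecule, was at 4.88, 4.41 and 6.05 CPM in E4H and at 8.01, 7.93, 6.92 and 6.69 CPM in PS/E4H. The groups did not overlap, as for 14.2% of genes in this direction, and the log2 fold change was 0.53 ± 0.15 (SE, edgeR adjusted p = 0.0381). It was 0.30 ± 0.17 in E3H (SE, edgeR adjusted p = 0.355) and 0.13 ± 0.16 in E2H (SE, edgeR adjusted p = 0.844), where groups overlapped, and 0.33 ± 0.09 pooled (SE, edgeR adjusted p = 0.0150). Clptm1 rose by 0.11 ± 0.03 pooled (SE, edgeR adjusted p = 0.0321), from a parental median of 180 CPM to 197 CPM in PS19 mice.

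Apoe was not called for tau, at 11.2 to 15.6 CPM in parental and 9.83 to 16.3 CPM in PS19 mice (pooled log2 fold change 0.04, 95% interval -0.12 to 0.20, edgeR adjusted p = 0.796). Tomm40 changed by 0.07 (95% interval -0.05 to 0.18, edgeR adjusted p = 0.450) and Bcam by 0.10 (95% interval -0.04 to 0.25, edgeR adjusted p = 0.346). Within 0.25 Mb, Trappc6a and Clasrp were the other genes called, by edgeR. Trappc6a rose by 0.32 (adjusted p = 0.0172), and Clasrp, a splicing-associated protein, fell (log2 fold change -0.33, adjusted p = 0.00777).

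The calls by line changed when single libraries were left out, and so did the number of calls over all genes. In PS/E4H against E4H, none of the 10 genes was called without E4H replicate 2, when 1189 genes in all were called in place of 3252. Bcl3 was then at 2.22 on the log2 scale (edgeR adjusted p = 0.0522). Of the 10 genes, 2 were called without E4H replicate 3, PS/E4H replicate 1 or PS/E4H replicate 2, with 2407, 3215 and 2209 calls over all genes. In PS/E3H against E3H, 0 were called without E3H replicate 1 or replicate 3, and 1 without E3H replicate 2 or PS/E3H replicate 4, when calls over all genes fell from 1141 to 113, 208, 259 and 397. With all mice, Apoc1 was at 1.71 and Bcl3 at 2.32 in that comparison. Without E3H replicate 1, Apoc1 was at 1.70 (edgeR adjusted p = 0.0881) and Bcl3 at 2.77 (edgeR adjusted p = 0.0565). Without E3H replicate 3 both were smaller, Apoc1 at 1.54 (edgeR adjusted p = 0.0765) and Bcl3 at 1.96 (edgeR adjusted p = 0.0681).

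Without the 4 libraries that hold Ddx3y, PS/E4H against E4H (2 against 2 mice) gave 0 calls among the 10 genes and 1990 over all genes. In that fit Bcl3 was at 1.48 (edgeR adjusted p = 0.106), Apoc1 at 1.17 (edgeR adjusted p = 0.237), Apoc4 at 3.81 (edgeR adjusted p = 0.108) and Nectin2 at 0.68 (edgeR adjusted p = 0.0628) on the log2 scale. With lines pooled the calls of Bcl3, Apoc1 and Apoc4 stood without those 4 libraries, and those of Nectin2 (edgeR adjusted p = 0.0512) and Clptm1 (edgeR adjusted p = 0.0914) did not, at log2 fold changes of 0.33 and 0.10, close to those with all mice. Leaving out any single mouse, the pooled calls of Bcl3, Apoc1 and Nectin2 stood in all 21 fits and that of Clptm1 in 13. The Apoc4 call also stood in all 21. Its rise was favoured by the filter on low counts, so its calls with or without these libraries add no support.

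Most markers of microglia and astrocytes were also higher in PS19 mice, in a pooled comparison where 11.4% of all genes were called higher and 9.63% lower. Of 6 microglia markers 5 were higher in PS19 mice with lines pooled, with a summed level of 326 to 409 CPM in parental and 390 to 755 CPM in PS19 mice, and none was at 0 in any mouse. All 5 astrocyte markers were higher (2436 to 3030 against 3851 to 5860 CPM), led by Gfap at a log2 fold change of 2.68, and 3 of 4 neuron markers were lower (4225 to 4623 against 3528 to 4452 CPM). By line, 1, 4 and 5 of the 6 microglia markers were called higher in PS19 mice of E2H, E3H and E4H. Of the 5 astrocyte markers 1, 4 and 4 were. Of all genes 0.752%, 5.37% and 15.6% were called in either direction in those comparisons. In bulk tissue, more cells of a type and more RNA per cell cannot be told apart. PS/E4H replicate 1, with the most Bcl3, Apoc1 and Apoc4, also had the highest microglia sum (755 CPM), and PS/E2H replicate 4, with the lowest sum of the PS19 mice (390 CPM), still had 3.59 CPM of Apoc1. The part of the markers in these differences was not tested.

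**Figure D5:**
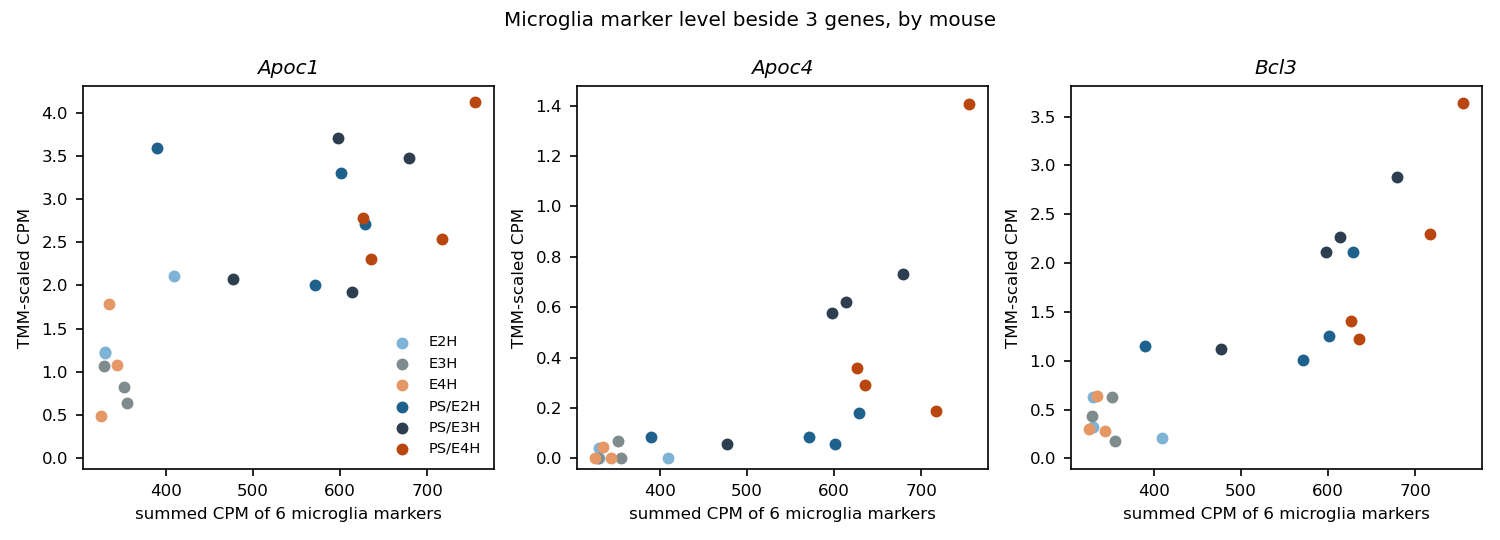
TMM-scaled CPM of Apoc1, Apoc4 and Bcl3 against the summed CPM of 6 microglia markers in each of the 21 mice, colored by group. Parental mice sit at 326 to 409 CPM of markers and PS19 mice spread from 390 to 755 CPM, with PS/E4H replicate 1 at the upper right of each panel.

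The remaining marker lists gave fewer or no calls in the pooled tau comparison, where 11.4% of all genes were called higher and 9.63% lower. Oligodendrocyte markers were higher for 2 of 4, endothelium for 1 of 3 and fibroblast or meninges for 1 of 3, choroid plexus and blood gave 0 of 3 each, and forebrain markers were lower for 3 of 4. Of the liver markers 1 of 3 was lower, Alb, which was at 0 in 13 mice, and of the pituitary markers 1 of 3, Prl. The 1 hindbrain and cord marker tested, Hoxb5, was not called. None of these marker lists had a gene called among the 3 lines, where 1.24% of all genes were.

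The partners of these genes elsewhere in the genome were also read, from lists that hold none of the 10. Of 12 tested genes of lipoprotein particles, 6 rose and 0 fell in PS19 mice with lines pooled (median log2 fold change 0.22, against -0.01 for all genes). Among all genes, 11.4% were called higher and 9.63% lower in that comparison. The lipid exporter Abca1 rose by 1.36 ± 0.16, Apod by 1.25 ± 0.18, the chaperone apolipoprotein Clu by 0.75 ± 0.06 and lipoprotein lipase, Lpl, by 0.53 ± 0.09 (SE). The reads assigned to the mouse Apoe model had a log2 fold change of 0.04 in that fit, which is not a measure of human APOE.

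Among 9 ApoE receptors and their regulators, 2 rose and 2 fell (median 0.03), where 11.4% of all genes rose and 9.63% fell. Trem2, the microglial lipid receptor, rose by 1.53 ± 0.13 and Lrpap1, a receptor chaperone, by 0.13 ± 0.04, while Scarb1, a lipoprotein receptor, fell (log2 fold change -0.16 ± 0.05, SE).

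Of 12 NF-κB pathway genes 4 rose and 1 fell (median 0.09). For this list and those that follow, the shares over all genes were again 11.4% higher and 9.63% lower. The inhibitor Nfkbia rose by 0.995 ± 0.164, Nfkb2 by 0.58 ± 0.13, Nfkb1 by 0.29 ± 0.06 and Rela by 0.25 ± 0.06 (SE), each less than Bcl3, which binds the products of Nfkb1 and Nfkb2. Of 8 further genes listed under the TOM complex, not all of them subunits of it, 1 rose (Tomm20, 0.18 ± 0.04) and 2 fell (Tomm34, -0.36 ± 0.05, and Tomm70a, -0.14 ± 0.03, SE). Of 8 nectins and partners, Nectin4 rose (0.30 ± 0.07) and Nectin1 (-0.41 ± 0.10) and the nectin-binding scaffold Afdn (-0.18 ± 0.05, SE) fell. None of these 5 lists had a gene called among the 3 lines, where 1.24% of all genes were.

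Outside the cluster, the 3 genes whose log2 CPM followed Apoe most closely over the 21 mice were Ramp1 (Pearson r = 0.845, Spearman rho = 0.806), AK157302 (r = 0.824, rho = 0.806) and Ndn (r = 0.805, rho = 0.792). They are the highest of 22854 genes, so the values describe a ranking and carry no test. Over the 9 parental mice r was 0.868, 0.713 and 0.841, over the 12 PS19 mice 0.896, 0.874 and 0.801, and without the 2 mice farthest from the Apoe median 0.845, 0.761 and 0.802.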

How the data were processed

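Stranded poly(A) libraries of forebrain RNA were sequenced in pairs on a NovaSeq instrument. The authors used Cutadapt for trimming and HISAT2 for alignment to the mouse genome from Ensembl (GRCm38 p5 per the submitters' processing notes) and quantified them with StringTie, ballgown and gffcompare. Tool versions are not given in the sources used here. The authors deposited a table of counts per gene, not normalized, and a table of FPKM values, which scale for length and mapped fragments. Samples were mapped to groups by their titles, and 0 columns were left unmapped.

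Counts were fitted with edgeR 4.0.16 (R 4.3.3): TMM scaling, filterByExpr (minimum count 10, minimum total 15), glmQLFit and glmQLFTest, with Benjamini-Hochberg adjustment over all genes tested (20202 to 21251 for 2 groups, 22863 for all 6). Alternatives were DESeq2 1.42.0 without a fold limit and, separately, a fold change of at least 2 added to the edgeR calls. The study's rule, which joins both, was not run. Pooled fits held tau state and APOE line as terms. The standard error is the absolute log2 fold change over the square root of F. Limma 3.58.1 was run on log2(FPKM + 1) of genes with a mean of at least 0.1 FPKM. No covariate was used. Scripts were tested on simulated data. Names and positions come from GENCODE M21, which matched 55141 of 55401 genes. Python 3.11.15 with SciPy 1.17.1 and matplotlib 3.10.9 did the rest.

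The 10 genes and the marker and pathway lists were chosen with earlier results of these data known. The genes named were all 10, any gene within 0.25 Mb that was called, the 3 genes most like Apoe and up to 4 genes per pathway list by smallest adjusted p in the pooled tau fit. Ccdc61, Gm45104, Dmwd, Pglyrp1 and Mill2, and the use of Clu and Apod for scale, were chosen after their values were seen. No 2 mice of a group agreed within sampling noise (chi-square per gene of 17.9 to 73.1 over 27 pairs). The labels name separate mice. Single members of 2 of the lists are counted with their list but not reported here by name.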

Additional observations from a re-analysis of the deposited data

Results flagged for a closer look

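Among the 28 group values of these genes in the PS19 groups of 4 mice that were not all 0, 3 held a mouse far from the other 3, by Dixon's ratio of the gap to the whole range. Chance flags about 1 in 20 such groups. Apoc4 in PS/E4H had replicate 1 at 1.41 CPM, with the others at 0.188 to 0.360 CPM (ratio 0.859). Clptm1 in PS/E4H had replicate 1 at 180 CPM, below the others at 197 to 199 CPM (ratio 0.870). Both distant values come from the same mouse, which also had the highest microglia marker sum. Apoc2 in PS/E3H had 1 mouse at 0.0319 CPM and the others at 0 (ratio 1), which is 2 counts.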

How the results depend on the processing

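No gene of the 10 was called in any of the 6 line comparisons or in the 3 interaction tests under any alternative, leave-one-out fits included. In the pooled test of the 3 lines the count ran from 0 to 1 when single mice were left out. For tau, with Apoc4 counted, leaving out single mice gave 0 to 0 genes in E2H, 0 to 3 in E3H, 0 to 4 in E4H and 4 to 5 pooled. DESeq2 called 1 gene in E2H (Bcl3). No filter on low counts gave 2 in E4H (Apoc4 and Bcl3). A fold change of at least 2 gave 3 pooled. Without the libraries with Ddx3y, a choice made after seeing the data, there were 0 in E4H and 3 pooled. Of 339 alternative values for 20 single differences, none reversed, 299 stayed on the same side of the threshold, 38 lost a call and 2 gained one. The cause of these changes was not tested.

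Same-numbered mice did not deviate together (correlations from -0.223 to 0.251 over 48 pairs, 8 above 0.1), so the replicate numbers were not taken as pairs. With the replicate number as a block, tau gave 1 gene in E3H (Apoc1), 3 in E4H (Apoc1, Apoc4 and Bcl3) and 4 pooled, with Nectin2 lost at an edgeR adjusted p of 0.0540, and no other call changed in the pooled fit. Over all genes the block gave 529 in place of 1141 calls in E3H, 1249 in place of 3252 in E4H and 246 in place of 155 in E2H. In the line comparisons it gave 17 in place of 34 for E4H against E3H, 26 in place of 45 for E4H against E2H, 15 in place of 23 for PS/E2H against PS/E3H and 0 in place of 4 for PS/E4H against PS/E3H.

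Other counts over all genes also moved. In the order of the 6 line comparisons, edgeR called 37, 34, 45, 23, 4 and 24 genes, DESeq2 599, 134, 293, 148, 44 and 224, and edgeR with all 6 groups in one fit 83, 19, 93, 49, 13 and 100. For tau in E2H the 155 calls became 635 with DESeq2, 557 with all groups in one fit, 91 with limma and 70 with no filter, and for tau in E3H the 1141 became 2327 with DESeq2, 657 with limma and 554 with no filter. No filter gave 15 for E4H against E3H and 2 for PS/E4H against PS/E3H, and limma 15 for PS/E4H against PS/E2H. The 283 calls among the 3 lines became 1588 with DESeq2 and 141 with no filter. Without the libraries with Ddx3y there were 104 of these, 21 for E4H against E3H, 1990 in place of 3252 for tau in E4H, and 4 and 5 in place of 0 for the interactions of tau with E4 against E3 and against E2.

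With 3 or 4 mice a group, 2-fold differences of Apoc1, Bcl3 and Apoc4 between lines stayed inside several intervals. Differences of that size were not excluded in those comparisons, and Apoc2 was below detection. How multi-mapping reads were counted is not given in the sources used here.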
